A study of Canis lupus familiaris with 222 samples.

Results

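ENSCAFG00000015860 and ENSCAFG00000007857 are 2 of the 24580 dog gene identifiers measured by RNA-seq in spontaneous canine mammary tumors (CMTs) and in adjacent normal mammary tissue. They were selected on the tumor against normal contrast of these same libraries, in which they had the largest average gains. Their tumor against normal values are therefore given as a description with no test. The deposited values do not pair the identifiers with gene names, so no function, location or sequence is given for either gene. Levels are FPKM, fragment numbers divided by transcript length and library size, and differences are on the log2(FPKM + 1) scale. All dogs were female. The labels named 17 breeds, and 19 dogs were of mixed breed. Ages ran from 2 to 19 years with a median of 12 and were not given for 7 dogs. By label 49 dogs were neutered and most of the others intact. Tumors were taken at surgery from 158 dogs, and normal mammary tissue beside the tumor was taken from 64 of these dogs. The 45 benign tumors were 18 simple adenomas, 17 complex adenomas and 10 benign mixed tumors. The 113 malignant tumors were 59 simple carcinomas, 33 complex carcinomas, 13 carcinomas in benign mixed tumors and 8 other malignant tumors, mostly osteosarcomas and carcinosarcomas. All tissue was bulk tissue, in which fewer cells of a type and less RNA per cell cannot be told apart.

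The mammary gland is built of luminal epithelial cells that line ducts and alveoli and of contractile myoepithelial cells around them. In dogs, a simple tumor holds a single epithelial cell type, a complex tumor also holds proliferating myoepithelial cells, and a mixed tumor holds cartilage or bone as well. Histological grade combines scores for tubule formation, nuclear form and mitoses, so loss of glandular structure is only part of what raises it. The estrogen receptor (ER) and HER2 are scored on tissue sections in dogs much as in human breast cancer. The study also sorted its tumors into a basal and a non-basal class and into 5 expression clusters, named NMF1 to NMF5.

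Libraries held between 52007828 and 147634076 mapped reads, with mapping rates between 66.6% and 93.2%. The number of reads behind a single FPKM value was not used here, so no counting interval is given. ENSCAFG00000015860 was listed at 0 in 4 tumors and 5 normal tissues, and ENSCAFG00000007857 in 3 tumors and 2 normal tissues. A value listed at 0 can also be a failed estimate. Of 581 identifiers with a median of at least 100 FPKM, 22 were listed at 0 in at least 1 library. Markers of cell types could not be looked up without gene names and were not analysed here.

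Both genes had far lower medians in normal mammary tissue than in tumors, and both varied far more between tumors than a typical gene. In the 64 normal tissues ENSCAFG00000015860 had a median of 3.60 FPKM, from 0 to 4099 FPKM. In the 158 tumors its median was 126.8 FPKM, from 0 to 24030 FPKM. It was the most abundant identifier of the whole library in 1 tumor, where it took 3.95% of the summed FPKM, and it ranked among the top 100 identifiers in 20 tumors and in 1 normal tissue. ENSCAFG00000007857 covered a smaller range. Its median was 3.47 FPKM in normal tissue, from 0 to 156.2 FPKM, and 79.5 FPKM in tumors, from 0 to 1950 FPKM. Its level passed the highest normal tissue in 50 tumors, against 6 tumors for ENSCAFG00000015860, for which 1 normal tissue reached 4099 FPKM. The ranges of tumor and normal tissue thus overlapped for both genes, at the low end through tumors as low as normal tissue. A total of 40 tumors had less than 10 FPKM of ENSCAFG00000015860, and 36 tumors had less than 10 FPKM of ENSCAFG00000007857.

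The spread between tumors was large. The SD of the log2 level over tumors was 3.56 for ENSCAFG00000015860 and 2.51 for ENSCAFG00000007857, which ranked 12 and 49 among 14585 identifiers whose median SD was 0.57. The upper quartile of tumors was 55.4 times the lower quartile for ENSCAFG00000015860 and 15.0 times the lower quartile for ENSCAFG00000007857. In normal tissue the SDs were lower, at 2.67 and 1.38, with a median of 0.53 over the same identifiers.

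Within dogs, the tumor was higher than the dog's own normal tissue in 52 of 64 dogs for ENSCAFG00000015860 and in 55 of 64 dogs for ENSCAFG00000007857. The difference of ENSCAFG00000015860 had a median of 4.80, from -5.88 to 12.25, and a mean of 3.96 ± 3.91 (SD, n = 64). That of ENSCAFG00000007857 had a median of 4.47, from -4.57 to 9.11, and a mean of 3.72 ± 2.94 (SD, n = 64). These means were the 2 largest among 218 identifiers that were called higher in tumors with a mean tumor level of at least 5 FPKM. The next 2 means were 3.48 and 3.36. Over all identifiers, 1.58% of 14707 were called higher in tumors, at an adjusted p under 0.05 and a difference of at least 1, and nothing is read from this for the 2 genes. Both genes were higher in the tumor in 47 dogs, only ENSCAFG00000015860 in 5 dogs, only ENSCAFG00000007857 in 8 dogs, and neither in 4 dogs.

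The single pairs show how far the 2 genes moved. The largest gain of ENSCAFG00000015860 was in a complex carcinoma with 5278 FPKM beside a normal tissue with 0.0849 FPKM. The same dog had the second largest gain of ENSCAFG00000007857, with 534 FPKM in the tumor and 0.278 FPKM in the normal tissue. The most negative difference of ENSCAFG00000015860 was in a dog with a simple adenoma, where the tumor had 68.7 FPKM and the normal tissue 4099 FPKM, the highest normal value of the series. That tumor lay between the lower quartile and the median of all tumors. For ENSCAFG00000007857 the most negative difference was in a simple carcinoma with 1.81 FPKM beside a normal tissue with 65.8 FPKM.

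**Figure D1:**
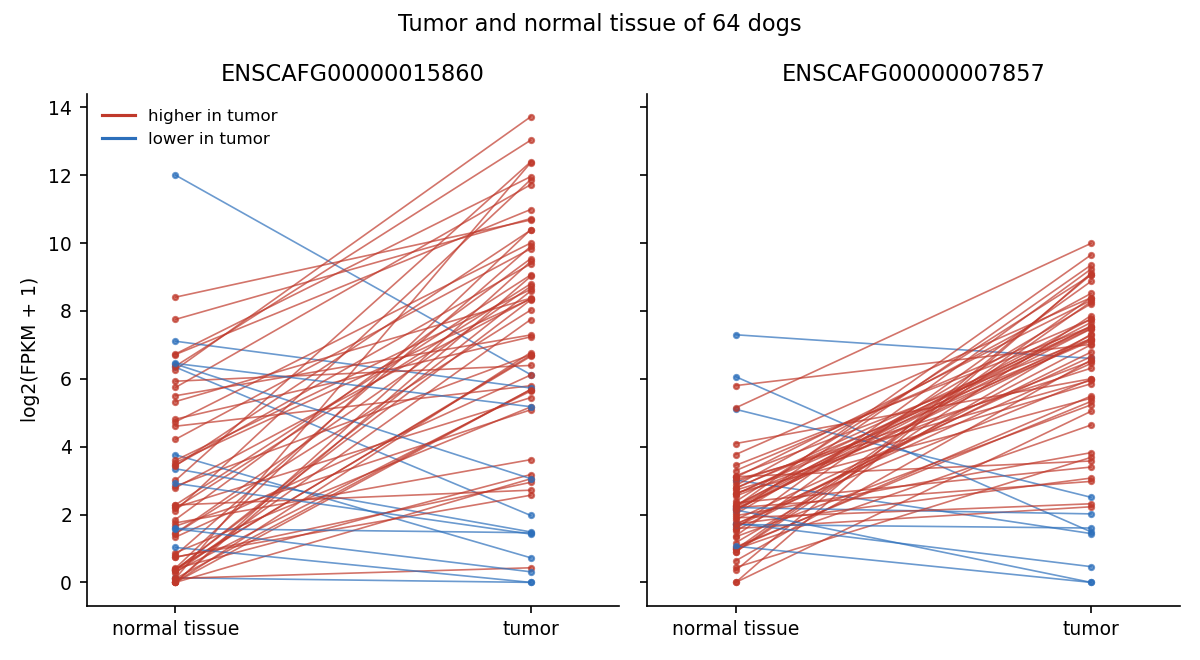
Levels of ENSCAFG00000015860 and ENSCAFG00000007857 as log2(FPKM + 1) in the normal tissue and the tumor of 64 dogs, each line joining the 2 tissues of a dog, red where the tumor was higher and blue where it was lower. Red lines make up 52 of 64 for ENSCAFG00000015860 and 55 of 64 for ENSCAFG00000007857, and of the blue lines 8 of 12 and 5 of 9 start above the median of normal tissue.

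By histology, the mean within-dog difference of both genes was positive in every group of tumors. All 19 dogs with a complex carcinoma, all 6 with a carcinoma in benign mixed tumor and all 5 with a complex adenoma had more ENSCAFG00000007857 in the tumor. In the 20 dogs with a simple carcinoma it was higher in 13 and lower in 7, with a mean difference of 2.09 ± 3.57 (SD) against 5.32 ± 2.30 (SD) in complex carcinomas. For ENSCAFG00000015860 the mean difference was 3.54 ± 3.70 (SD) in simple carcinomas and 5.14 ± 3.54 (SD) in complex carcinomas. A test across the 7 histology groups asked whether the within-dog difference depended on histology. It gave an F of 0.74 for ENSCAFG00000015860 (limma, adjusted p = 0.814) and 2.62 for ENSCAFG00000007857 (unadjusted p = 0.0254, limma, adjusted p = 0.311), beside 0.394% of 14707 identifiers called. Benign and malignant tumors did not differ detectably in the within-dog difference. Malignant minus benign was 0.30 ± 1.11 (SE) for ENSCAFG00000015860 and 0.23 ± 0.84 (SE) for ENSCAFG00000007857, with adjusted p of 0.970 and 0.968 (limma). In this comparison 0% of 14707 identifiers were called, with 746 at an unadjusted p under 0.05.

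Over all 158 tumors, high levels of both genes were already present in benign tumors. ENSCAFG00000015860 had a median of 158.97 FPKM in 45 benign tumors, from 0.328 to 19165 FPKM, and of 108.4 FPKM in 113 malignant tumors, from 0 to 24030 FPKM. ENSCAFG00000007857 had a median of 111.5 FPKM in benign tumors, from 1.30 to 1611 FPKM, and of 63.02 FPKM in malignant tumors, from 0 to 1950 FPKM. The ranges covered each other almost fully. Malignant minus benign was -0.42 ± 0.62 (SE) for ENSCAFG00000015860, with an approximate 95% interval from -1.64 to 0.80 and an adjusted p of 0.811 (limma). It was -0.52 ± 0.44 (SE) for ENSCAFG00000007857, with an interval from -1.38 to 0.33 and an adjusted p of 0.614 (limma). With the malignancy of the study's clinical table, which differs from the labels for 9 tumors, it was -0.19, with an interval from -1.13 to 0.75, and that of ENSCAFG00000015860 was -0.53, with an interval from -1.86 to 0.80. Of 14585 identifiers, 0.13% were called here.

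ENSCAFG00000007857 differed between tumor histologies, while for ENSCAFG00000015860 no difference between them passed the threshold. ENSCAFG00000007857 was high in the complex and mixed tumors. Its medians were 159.8 FPKM in complex carcinomas and 152.5 FPKM in complex adenomas. They were 140.3 FPKM in carcinomas in benign mixed tumors and 125.1 FPKM in benign mixed tumors. The simple tumors were lower, with medians of 54.3 FPKM in simple adenomas and 36.5 FPKM in simple carcinomas. The other malignant tumors had a median of 36.4 FPKM. Ordered by their mean log2 levels, neighbouring histology groups did not differ by more than the smaller of their SDs. The test across the 7 groups gave an F of 4.86 for ENSCAFG00000007857 (limma, adjusted p = 0.00287), in a comparison in which 17% of 14585 identifiers were called. For ENSCAFG00000015860 the F was 1.46 (limma, adjusted p = 0.353), and its medians ran from 76.3 FPKM in simple carcinomas to 248.4 FPKM in carcinomas in benign mixed tumors, with 3.02 FPKM in the 8 other malignant tumors.

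Simple carcinomas had less ENSCAFG00000007857 than complex carcinomas. The 59 simple carcinomas ran from 0 to 531.9 FPKM and the 33 complex carcinomas from 2.79 to 651.3 FPKM, so the groups overlapped over most of their range. The difference was -2.18 ± 0.50 (SE), with an adjusted p of 0.00317 (limma), and 0.549% of 14585 identifiers were called lower in simple carcinomas. For ENSCAFG00000015860 it was -0.66 ± 0.76 (SE) with an adjusted p of 0.629 (limma). ENSCAFG00000007857 minus ENSCAFG00000015860 was -1.51 in this contrast over these 92 carcinomas (permutation test, p = 0.0343, adjusted over 3 such tests 0.103). It is thus not shown that the 2 genes differed here. Most grade 3 carcinomas were simple, 20 of 23. With grade in the fit the difference of ENSCAFG00000007857 was -1.48 ± 0.49 (SE) and no longer passed the threshold (limma, adjusted p = 0.0993), with 0.365% of 14533 identifiers still called lower. Against simple adenomas, simple carcinomas differed by -0.45 ± 0.94 (SE) for ENSCAFG00000015860 and by -0.41 ± 0.63 (SE) for ENSCAFG00000007857, with adjusted p of 0.893 and 0.839 (limma). In that contrast 0% of 14585 identifiers were called, with 1821 at an unadjusted p under 0.05. Against carcinomas in benign mixed tumors the differences were -0.06 ± 1.07 (SE) and -1.97 ± 0.71 (SE), with adjusted p of 0.987 and 0.157 (limma) beside 0.185% of identifiers called.

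**Figure D2:**
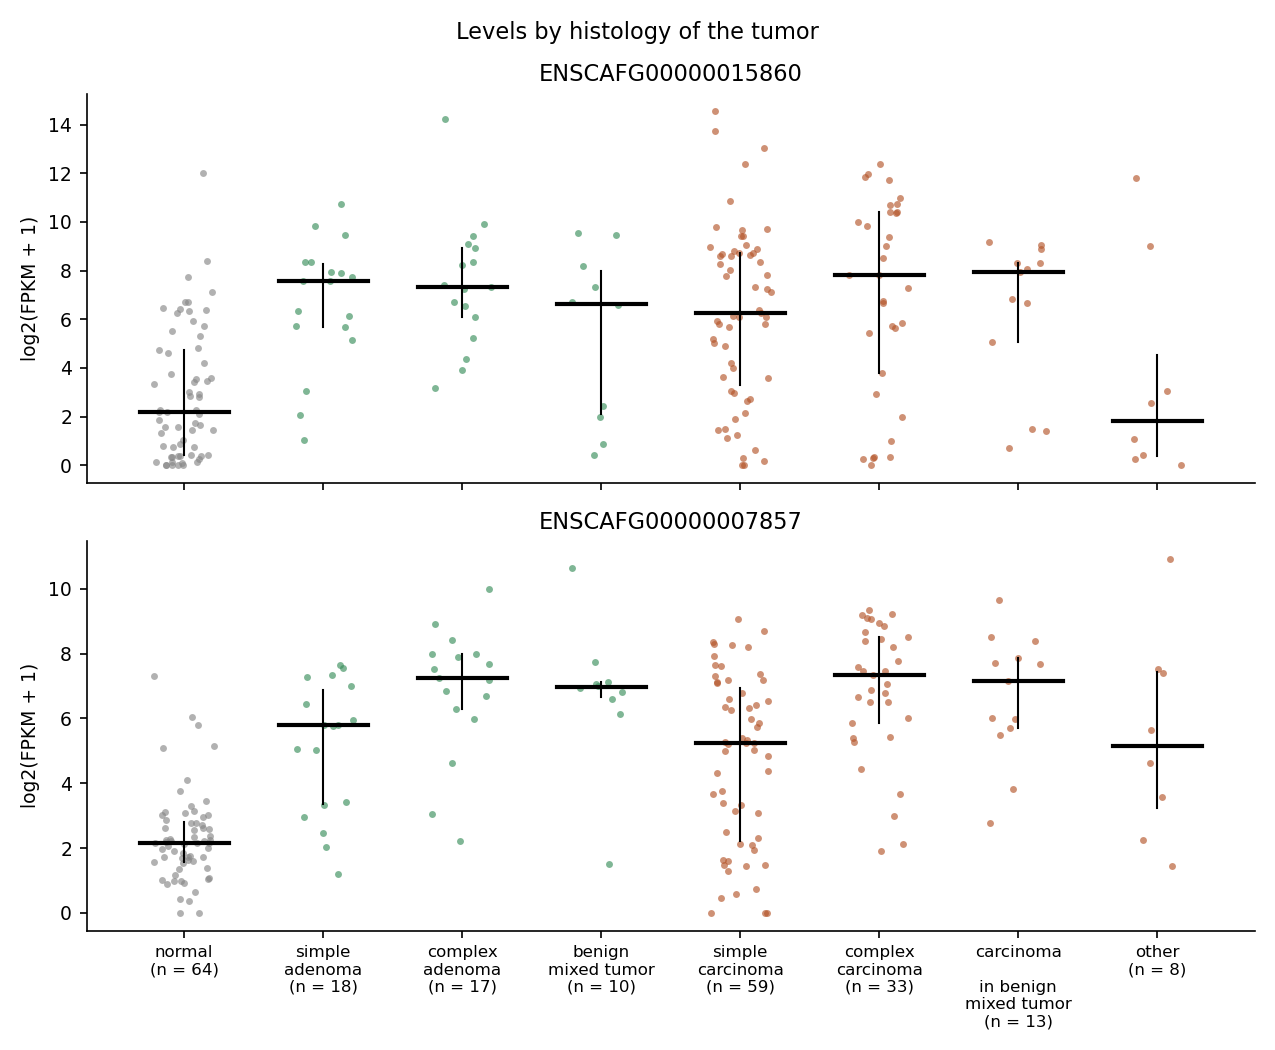
Levels of both genes as log2(FPKM + 1) in 64 normal tissues and in 158 tumors by histology, with benign tumors in green and malignant tumors in orange. Each point is a library, the thick bar is the median and the thin line joins the lower and upper quartiles. The medians of ENSCAFG00000007857 were above 100 FPKM in the complex and mixed groups and below it in the simple and other groups, and those of ENSCAFG00000015860 ran from 3.02 FPKM in the other malignant tumors to 248.4 FPKM in carcinomas in benign mixed tumors.

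Among simple carcinomas, the solid and the tubulopapillary type stood far apart in both genes. The tubulopapillary type forms tubules and papillae, while the solid type grows in sheets. ENSCAFG00000015860 had a median of 310.3 FPKM in 39 tubulopapillary tumors, from 0 to 24030 FPKM, and of 9.23 FPKM in 18 solid tumors, from 0 to 444.0 FPKM. ENSCAFG00000007857 had a median of 52.8 FPKM in the tubulopapillary type, from 0 to 531.9 FPKM, and of 3.39 FPKM in the solid type, from 0 to 241.5 FPKM. The median of solid tumors was thus close to that of normal tissue for ENSCAFG00000007857. This comparison was added after these medians had been seen. Solid minus tubulopapillary was -2.97 ± 0.93 (SE) for ENSCAFG00000015860 and -2.61 ± 0.64 (SE) for ENSCAFG00000007857, with adjusted p of 0.0375 and 0.00610 (limma), and 1.11% of 14497 identifiers were called lower in the solid type. The type and the grade can hardly be told apart, since 17 of 18 solid tumors and 2 of 39 tubulopapillary tumors were of grade 3. With grade in the fit the differences were -1.13 ± 2.00 (SE) and -1.12 ± 1.38 (SE), with adjusted p of 1 for both genes (limma) and 0.0345% of identifiers called.

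Both genes fell with the histological grade of the carcinomas. ENSCAFG00000015860 had a median of 317.9 FPKM in 61 grade 1 carcinomas, of 152.7 FPKM in 21 grade 2 carcinomas and of 11.1 FPKM in 23 grade 3 carcinomas. The median of ENSCAFG00000007857 went from 116.1 FPKM to 56.5 FPKM and to 2.80 FPKM, beside a median of 3.47 FPKM in normal tissue. The groups overlapped in both genes. Grade 1 carcinomas ran from 0 to 24030 FPKM of ENSCAFG00000015860 and from 0 to 801.6 FPKM of ENSCAFG00000007857, and grade 3 carcinomas from 0 to 1022 FPKM and from 0 to 412.2 FPKM. Per step of grade, ENSCAFG00000015860 decreased by 1.56 ± 0.41 (SE, limma, adjusted p = 0.00270) and ENSCAFG00000007857 by 1.57 ± 0.27 (SE, limma, adjusted p = 2.87e-06). Of 14533 identifiers, 11.2% were called lower with grade, so a fall with grade was common among all genes tested. The slopes of the 2 genes differed by less than 0.01 (permutation test, p = 0.993).

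The step from grade 2 to grade 3 had the larger estimate, although only grade 3 against grade 1 passed the threshold. Grade 3 minus grade 1 was -3.23 ± 0.81 (SE) for ENSCAFG00000015860 and -3.32 ± 0.55 (SE) for ENSCAFG00000007857, both called (limma, adjusted p = 0.00174 and 2.41e-06), with 1.92% of 14474 identifiers called lower. Grade 3 minus grade 2 was -2.10 ± 1.01 (SE) and -2.53 ± 0.72 (SE), and neither gene passed the threshold (limma, adjusted p = 0.368 and 0.151), with 0.00686% of identifiers called lower. For grade 2 minus grade 1 the values were -1.13 ± 0.89 (SE) and -0.79 ± 0.51 (SE), with adjusted p of 0.615 and 0.525 (limma), and 0% of 14464 identifiers were called, with 1924 at an unadjusted p under 0.05. These contrasts were added after the levels by grade had been seen. The 2 genes were also counted jointly. The 90th percentile of normal tissue was 86.2 FPKM for ENSCAFG00000015860 and 11.8 FPKM for ENSCAFG00000007857. Both genes were above it in 41 of 61 grade 1 carcinomas, in 11 of 21 grade 2 carcinomas and in 3 of 23 grade 3 carcinomas, and neither was above it in 6, 2 and 15 of them.

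Grade moved together with other features of the tumors, and their part in the result was not tested beyond the following values. Within the 59 simple carcinomas the slopes were -1.56 ± 0.48 (SE) and -1.43 ± 0.34 (SE), both called (limma, adjusted p = 0.0275 and 0.00254). With histology in the fit they were -1.70 ± 0.44 (SE) and -1.28 ± 0.28 (SE), both called (limma, adjusted p = 0.00310 and 0.000326). The basal class held 4 of 61 grade 1, 7 of 21 grade 2 and 17 of 23 grade 3 carcinomas. The study made the classes from expression values of the same tumors, so slopes within a class are no independent test of grade. A slope that did not pass within a class does not show that grade had no relation there. Within the non-basal class the slope was -0.11 ± 0.61 (SE) for ENSCAFG00000015860 and -0.87 ± 0.38 (SE) for ENSCAFG00000007857, with adjusted p of 0.982 and 0.541 (limma), and 0% of 14420 identifiers were called, with 1152 at an unadjusted p under 0.05. Within the basal class the slopes were -1.71 ± 0.79 (SE) and -1.88 ± 0.64 (SE), with adjusted p of 0.387 and 0.218 (limma), and 0% of 14459 identifiers were called, with 1715 at an unadjusted p under 0.05. The 6 non-basal carcinomas of grade 3 had a median of 241.6 FPKM of ENSCAFG00000015860 and 71.1 FPKM of ENSCAFG00000007857, against 6.86 FPKM and 2.79 FPKM in the 17 basal ones. By surgery year, ENSCAFG00000015860 had slopes of -1.99, -1.05 and -4.94 in 2016, 2017 and 2018, of which only the last passed the threshold. That of 2018 rested on a single carcinoma each of grade 2 and grade 3. ENSCAFG00000007857 had slopes of -1.09, -1.65 and -2.35, of which the last 2 passed. The slopes were not shown to differ between years (interaction of grade and year, limma, adjusted p = 0.982 and 0.999), a test in which 0.0275% of 14533 identifiers were called. Median mapping rates were 91.6%, 91.5% and 91.5% for grades 1 to 3.

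**Figure D3:**
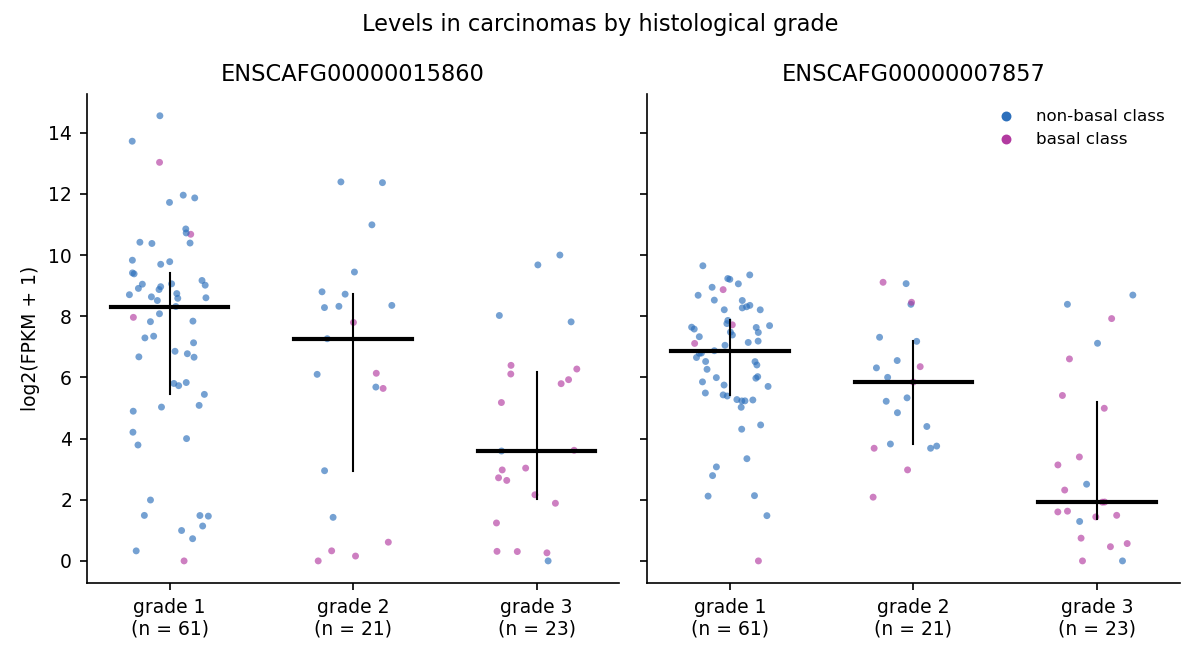
Levels of both genes as log2(FPKM + 1) in carcinomas of grade 1, 2 and 3, colored by class. Each point is a tumor, the thick bar is the median and the thin line joins the lower and upper quartiles. The medians fell from 317.9 to 11.1 FPKM for ENSCAFG00000015860 and from 116.1 to 2.80 FPKM for ENSCAFG00000007857, and most low points of grade 3 belong to the basal class.

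Lymphatic invasion, which the methods define by tumor cells in lymphatic vessels or, where examined, in lymph nodes, was labelled as present in 16 of the 113 malignant tumors. ENSCAFG00000007857 had a median of 3.03 FPKM in these, from 0 to 412.2 FPKM, and of 83.7 FPKM in the 97 tumors without invasion, from 0 to 1950 FPKM. Invasion went with a decrease of 3.14 ± 0.64 (SE, limma, adjusted p = 0.000512), and 0.618% of 14559 identifiers were called lower. ENSCAFG00000015860 had medians of 44.8 FPKM and 161.8 FPKM, a difference of -1.49 ± 1.01 (SE) that did not pass the threshold (limma, adjusted p = 0.382). ENSCAFG00000007857 minus ENSCAFG00000015860 was -1.65 in this contrast (permutation test, p = 0.0739, adjusted over 3 such tests 0.111). Of the 16 tumors with invasion 15 were of grade 3 and 1 of grade 2. Among all malignant tumors of grade 3, ENSCAFG00000007857 had a median of 2.09 FPKM in the 15 with invasion and of 23.9 FPKM in the 13 without it. These include other malignant types, some of which were graded by other systems than the carcinomas. With grade in the fit its difference was -1.42 ± 0.81 (SE) with an adjusted p of 0.532 (limma), that of ENSCAFG00000015860 was 1.05 ± 1.27 (SE) with an adjusted p of 0.815 (limma), and 0.0206% of identifiers were called.

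By class and cluster, the medians of both genes were low in the basal class and in the 2 smallest clusters, NMF4 and NMF5. These groups were made by the study from the expression values of the same tumors, for the clusters together with the normal tissues, so their levels are a description. The paper calls the NMF4 and NMF5 signatures specific to adjacent normal tissue. The 2 genes were selected for higher levels in tumors than in normal tissue, so low levels in these 2 clusters are no independent result. ENSCAFG00000015860 had a median of 6.86 FPKM in 37 basal tumors, from 0 to 8361 FPKM, and of 226.5 FPKM in 120 non-basal tumors, from 0 to 24030 FPKM. ENSCAFG00000007857 had medians of 10.9 FPKM, from 0 to 1950 FPKM, and 94.4 FPKM, from 0 to 1611 FPKM. The classes overlapped over most of their range in both genes. Among clusters, NMF2 and NMF1 were highest, with medians of 248.4 and 164.5 FPKM for ENSCAFG00000015860 and of 99.4 and 88.5 FPKM for ENSCAFG00000007857. In the 18 tumors of NMF3 the median of ENSCAFG00000015860 was 7.07 FPKM, from 0 to 1638 FPKM, and that of ENSCAFG00000007857 was 59.2 FPKM, from 0 to 1950 FPKM. Above the 90th percentile of normal tissue lay 8 and 13 of these 18 tumors. NMF4, with 7 tumors, had medians of 1.80 and 6.79 FPKM, and NMF5, with 5 tumors, had medians of 7.32 and 3.68 FPKM. ENSCAFG00000007857 ran from 1.30 to 159.6 FPKM in NMF5 and was above the 90th percentile of normal tissue in 2 of its 5 tumors. No tumor of NMF4 had more than 13.1 FPKM of ENSCAFG00000007857. In the order of mean log2 levels only NMF5 and NMF4 differed by more than the smaller SD, and only for ENSCAFG00000007857.

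**Figure D4:**
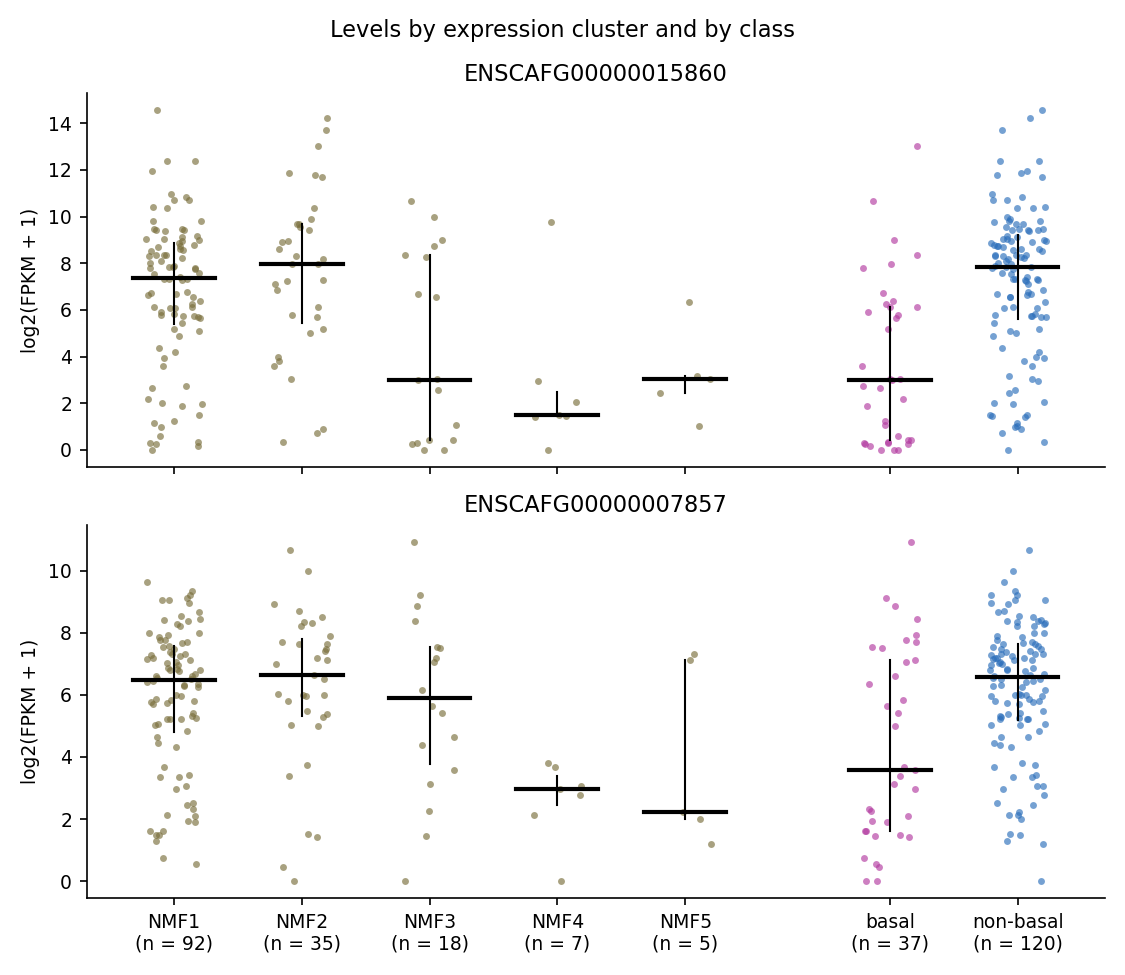
Levels of both genes as log2(FPKM + 1) in the tumors of the 5 expression clusters and of the basal and non-basal class. Each point is a tumor, the thick bar is the median and the thin line joins the lower and upper quartiles. NMF1 and NMF2 hold the highest medians of both genes, and the median of the basal class lies below that of the non-basal class.

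The ER score was given for all but 5 tumors as an Allred score, which runs from 0 to 8. The 24 ER-negative tumors had a median of 9.65 FPKM of ENSCAFG00000015860 and 27.3 FPKM of ENSCAFG00000007857. The ER-positive tumors had medians of 161.8 FPKM and 90.4 FPKM. Negative tumors were lower in the median, but the 2 tumors with a score of 0 had 318 and 19165 FPKM of ENSCAFG00000015860. Per point of the score the slope was 0.25 ± 0.12 (SE) for ENSCAFG00000015860 and 0.25 ± 0.09 (SE) for ENSCAFG00000007857. Neither passed the threshold (limma, adjusted p = 0.208 and 0.0591), beside 6.07% of 14573 identifiers called. ENSCAFG00000007857 passed it with the mapping rate in the fit (limma, adjusted p = 0.0470), and over its alternatives the adjusted p ran from 0.0218 to 0.959. Of the malignant tumors with a score, 13 of 26 of grade 3 and 2 of 60 of grade 1 were ER-negative. With grade in the fit both slopes were 0.05, with intervals from -0.21 to 0.31 and from -0.12 to 0.23, and 0% of 14573 identifiers were called, with 626 at an unadjusted p under 0.05 (limma).

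The HER2 score runs from 0 to 3. ENSCAFG00000015860 had medians of 72.3, 243.0, 164.5 and 59.8 FPKM in the 14, 28, 74 and 37 tumors with scores 0, 1, 2 and 3. ENSCAFG00000007857 had medians of 100.5, 80.5, 90.6 and 41.5 FPKM. The slope per point was -0.05 ± 0.32 (SE) for ENSCAFG00000015860, with an interval from -0.67 to 0.58, and -0.37 ± 0.23 (SE) for ENSCAFG00000007857, with an interval from -0.81 to 0.07. In malignant tumors alone the slope of ENSCAFG00000007857 was -0.81, with an interval from -1.34 to -0.27, which did not pass after adjustment (limma, unadjusted p = 0.00391, adjusted p = 0.431). Over all tumors with a score neither was called (limma, adjusted p = 0.997 and 0.867), nor was any other identifier, 0% of 14573, with 870 at an unadjusted p under 0.05. Neuter status, which changes the exposure of the gland to ovarian hormones, came with no detectable difference in either gene. ENSCAFG00000015860 had medians of 152.7 FPKM in 49 neutered and 103.04 FPKM in intact dogs, and ENSCAFG00000007857 of 62.6 FPKM and 93.4 FPKM. Neutered minus intact was 0.41 ± 0.61 (SE) and 0.04 ± 0.43 (SE), with intervals from -0.79 to 1.61 and from -0.81 to 0.88 (limma, adjusted p = 0.884 and 0.991), and 0% of 14588 identifiers were called, with 1111 at an unadjusted p under 0.05.

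Survival was known for 141 dogs, of which 39 had died, per the study's clinical table. The labels instead gave 27 deaths and listed 35 dogs as lost to follow-up. ENSCAFG00000007857 had a median of 36.6 FPKM in the tumors of dogs that died, from 0 to 589.3 FPKM, and of 97.7 FPKM in those of the other dogs, from 0 to 1950 FPKM. ENSCAFG00000015860 had medians of 83.0 FPKM and 157.3 FPKM. In Cox models fitted to each identifier, the hazard ratio per log2 unit was 0.804 for ENSCAFG00000007857 (95% interval from 0.7103 to 0.910, adjusted p = 0.0960) and 1.01 for ENSCAFG00000015860 (95% interval from 0.924 to 1.10, adjusted p = 0.947). Neither passed the threshold, and 0.199% of 14588 identifiers did. Without adjustment over genes, ENSCAFG00000007857 had a p of 0.000740 in a permutation test of the score statistic. With grade in the fit its hazard ratio was 0.856 (95% interval from 0.749 to 0.978, adjusted p = 0.986), and 0% of identifiers were called, with 693 at an unadjusted p under 0.05.

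Against each other, the 2 genes were correlated across tumors, across normal tissues and in the within-dog difference. Over 158 tumors Pearson's r was 0.48 (permutation p = 1e-05, adjusted over 5 relations 5e-05) and Spearman's rho was 0.44 (permutation p = 1e-05, adjusted 5e-05), where 1e-05 is the smallest p that 100000 resamples can give. Without the 2 tumors farthest from the median of ENSCAFG00000015860 r was 0.48. Within surgery years r was 0.37, 0.50 and 0.69 in 42, 99 and 17 tumors of 2016, 2017 and 2018 (permutation p = 0.0163, 1e-05 and 0.00315). Within grades 1, 2 and 3 r was 0.39, 0.47 and 0.49 (permutation p = 0.00183, 0.0308 and 0.0198). The within-grade rho values were 0.24, 0.42 and 0.38, none with a p under 0.05 (permutation p = 0.0644, 0.0561 and 0.0772). Without the 2 farthest tumors of each grade r was 0.31, 0.34 and 0.20. Within grades the relation thus rested in part on those tumors, most of all in grade 3. In the 64 normal tissues r was 0.42 and rho 0.30 (permutation p = 0.000830 and 0.0154, adjusted 0.00138 and 0.0257), and r was 0.37 without the 2 farthest tissues. By year, r in normal tissue was 0.75, 0.20 and 0.56, and it passed only in 2016 (permutation p = 0.00497, 0.216 and 0.0704). The within-dog differences had an r of 0.51 and a rho of 0.49 (permutation p = 3e-05 and 6e-05, adjusted 7.5e-05 and 0.00015), an r of 0.48 without the 2 farthest dogs, and r values of 0.65, 0.45 and 0.80 in the 3 years.

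The relation left some tumors in which the genes came apart. Above the 90th percentile of normal tissue lay both genes in 82 of 158 tumors, only ENSCAFG00000007857 in 39, only ENSCAFG00000015860 in 5 and neither in 32. These marks were unequal, at 86.2 FPKM for ENSCAFG00000015860 and 11.8 FPKM for ENSCAFG00000007857. Tumors with similar FPKM of both genes therefore also fell among the 39. An extreme case of the genes coming apart was a malignant myoepithelioma, a spindle cell carcinoma of the myoepithelial lineage. It had the highest ENSCAFG00000007857 of the series at 1950 FPKM, while ENSCAFG00000015860 was listed at 0, which can also be a failed estimate. A complex carcinoma had 350 FPKM of ENSCAFG00000007857 and 0.256 FPKM of ENSCAFG00000015860. No relation between a dog's normal tissue and its tumor passed the threshold after adjustment for either gene. Between the tumor and the normal tissue of 64 dogs r was 0.26 and rho 0.26 for ENSCAFG00000015860 (permutation p = 0.0416 and 0.0401, adjusted 0.0520 and 0.0501), and r was 0.27 without the 2 farthest dogs. By year this r was -0.17, 0.42 and 0.27. For ENSCAFG00000007857 r was -0.01 and rho 0.03 (permutation p = 0.932 and 0.798, adjusted 0.932 and 0.798), with r at 0.07 without the 2 farthest dogs and at 0.11, -0.04 and -0.19 by year.

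**Figure D5:**
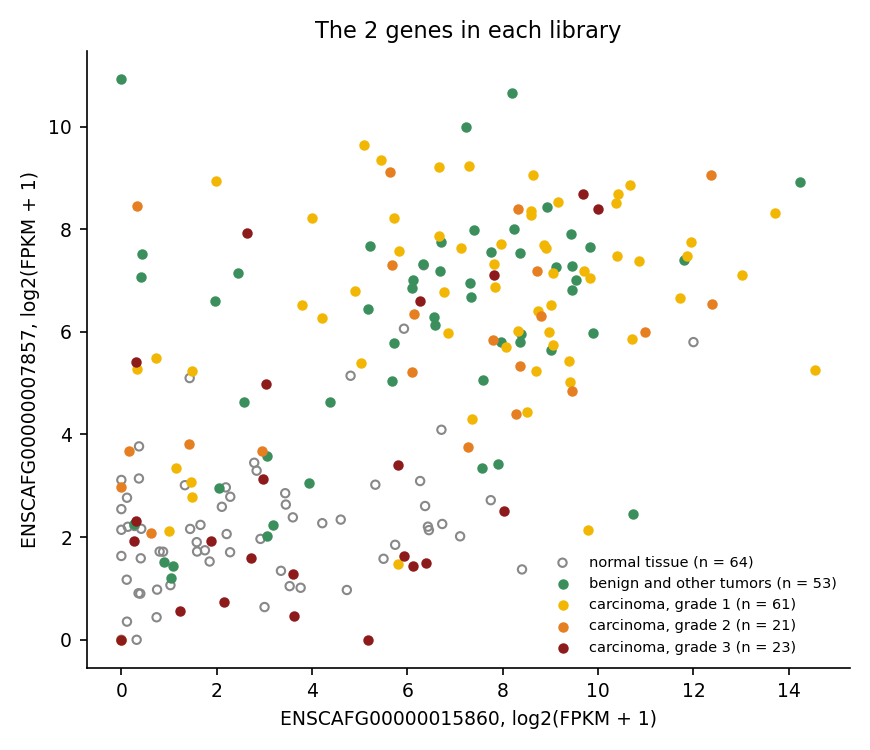
ENSCAFG00000007857 against ENSCAFG00000015860, both as log2(FPKM + 1), in 64 normal tissues (open circles) and 158 tumors (filled, colored by grade of the carcinoma, with benign and other tumors in green). Normal tissues lie mostly at the lower left, tumors with both genes high at the upper right, and grade 3 carcinomas mostly among the normal tissues.

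Other identifiers followed each gene more closely than the 2 genes followed each other. Likeness was measured by Spearman's rho over the 158 tumors against 14584 other identifiers and is a description, since all values share their libraries. The identifiers closest to ENSCAFG00000015860 were ENSCAFG00000010348 with a rho of 0.71 and ENSCAFG00000023658 with a rho of 0.65. ENSCAFG00000010348 had a median of 5.66 FPKM in tumors and 0.425 FPKM in normal tissue, and of 10.9 and 0.927 FPKM in carcinomas of grades 1 and 3. The identifiers closest to ENSCAFG00000007857 were ENSCAFG00000013156 with a rho of 0.82 and ENSCAFG00000011011 with a rho of 0.78. ENSCAFG00000011011 lay near the floor, with a median of 0.206 FPKM in tumors and 0 FPKM in normal tissue. ENSCAFG00000013156 had a median of 7.44 FPKM in tumors and 0.841 FPKM in normal tissue, and of 13.4 and 2.64 FPKM in carcinomas of grades 1 and 3. The most opposed identifiers for ENSCAFG00000015860 were ENSCAFG00000001515 and ENSCAFG00000000882, with a rho of -0.43 and -0.41. For ENSCAFG00000007857 they were ENSCAFG00000015872 and ENSCAFG00000016285, with a rho of -0.65 and -0.59. ENSCAFG00000001515 was also low, with a median of 0.626 FPKM in tumors. In the order of likeness ENSCAFG00000007857 stood at place 88 for ENSCAFG00000015860, and ENSCAFG00000015860 at place 279 for ENSCAFG00000007857. A rho over 0.5 was reached by 34 identifiers with ENSCAFG00000015860 and by 141 with ENSCAFG00000007857.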

How the data were processed

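RNA from mammary tumors of 158 dogs and from the adjacent normal tissue of 64 of them was enriched for poly(A) and sequenced. The submitters' processing notes name the build CanFam3.1, TopHat2 2.0.9 and Cufflinks 2.1.1, with which the authors made the deposited FPKM values. These normalised values are scaled by transcript length and by library size, and they are not counts. No read was remapped here. Histology, grade, ER and HER2 scores, lymphatic invasion and neuter status were taken from the labels. The study's clinical table gave cluster, class and survival, and the study's sequencing table gave mapping statistics. The malignancy in the clinical table differs from the labels for 9 tumors and its follow-up time for most, and it has no entry for 1 tumor.

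Tests were fitted over all identifiers with a mean of at least 0.5 FPKM in the libraries compared, by limma 3.58.1 (R 4.3.3). The log2 values had a pseudocount of 1, the variance trend was modelled, and p-values were adjusted by the Benjamini-Hochberg method over all of them. On this scale the changes of low genes are understated. A call between groups needed an adjusted p under 0.05 and a difference of at least 1, and a call of a slope, of an F test or of a Cox model (survival 3.8.3) an adjusted p under 0.05. Approximate intervals are the estimate with the normal 95% range of its SE. Permutation tests were two-sided, with 100000 resamples. The fits were tested on simulated data. Grade was fitted as a number over the 3 carcinoma types. As a factor in the fits of invasion, ER, HER2 and survival, grade also covered the other malignant tumors. The osteosarcomas and the fibrosarcoma among them were graded by other systems. Benign tumors, where included, were a level of their own. Alternatives changed the pseudocount, the filter, the scaling, the source of pathology, the covariates and the tumors used.

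The tumor and normal libraries of a dog pair by dog, per the labels. Over 14707 genes their deviations from the group means had a mean correlation of 0.20 within dogs and -0.003 between dogs, and it was over 0.1 in 45 of 64 dogs, so within-dog differences were used. The 2 genes and the comparisons were chosen with earlier results of these data known. The named identifiers were, for each gene, the 2 with the highest and the 2 with the lowest Spearman's rho over tumors. Surgery year was the only date given and is not a sequencing batch. Each p-value sets a difference, slope or relation against the spread between dogs. Cell type markers were not analysed here.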

Additional observations from a re-analysis of the deposited data

Results flagged for a closer look

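Among 22 groups of 4 to 10 libraries or pairs that were examined on the log2 scale, 3 held a value far from the others in Dixon's test at the 95% level, which chance gives in about 1 of 20 groups. In the 7 tumors of NMF4, the highest log2 level of ENSCAFG00000015860 was 9.78 (879 FPKM), and the next was 2.95. In the 10 benign mixed tumors, the lowest log2 level of ENSCAFG00000007857 was 1.52 (1.87 FPKM), and the next was 6.14. In the 5 dogs with a complex adenoma, the lowest within-dog difference of ENSCAFG00000007857 was 0.64, and the next was 4.04.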

How the results depend on the processing

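Of 342 alternative values of the 2 genes and their correlations, 302 kept sign and threshold side, or, if untested, moved by less than 1 SD. Filters left estimates unchanged and paired SDs (3.91 and 2.94) were near the means, so such values could hardly change. Another 17 no longer passed, 8 came to pass and 15 changed sign, causes untested. Without the replicate block by dog, tumor minus normal over all libraries was 3.48 and 3.46 for the 2 genes. Reads behind low FPKM values are unknown.

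For ENSCAFG00000015860, the values that changed sign, none of which passed the threshold before or after, were malignant minus benign in 2018 (2.71), the HER2 slope with a pseudocount of 0.1 (0.0119), in 2016 (0.66), in malignant tumors (0.00878) and with grade in the fit (0.0553), invasion with grade in the fit (1.05), simple minus complex carcinoma with grade in the fit (0.26), simple carcinoma minus carcinoma in benign mixed tumor with the pathology of the study's clinical table (0.13) and without libraries that list a member at 0 (0.19), and the paired malignant minus benign difference with a pseudocount of 0.1 (-0.0783) and with the pathology of the study's clinical table (-0.57). For ENSCAFG00000007857 they were malignant minus benign in 2018 (0.37) and neuter status without libraries listing a member at 0 (-0.27). The correlation of tumor and own normal tissue changed sign in 2016 for both (-0.17 and 0.11).

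The grade slope of ENSCAFG00000015860 did not pass in 2016 (-1.99) and 2017 (-1.05), in non-basal (-0.11) and basal carcinomas (-1.71), and for grade 2 minus 1 (-1.13) and 3 minus 2 (-2.10). That of ENSCAFG00000007857 did not pass in 2016 (-1.09), in non-basal (-0.87) and basal carcinomas (-1.88), and for grade 2 minus 1 (-0.79) and 3 minus 2 (-2.53). With grade in the fit, invasion (-1.42), simple minus complex carcinoma (-1.48) and the solid type (-1.12) did not pass for ENSCAFG00000007857, nor did the solid type for ENSCAFG00000015860 (-1.13). The correlation of the 2 genes in normal tissue did not pass in 2017 (0.20) and 2018 (0.56). The ER slope came to pass in permutation tests without adjustment over genes (0.25 for both, p = 0.0396 and 0.00457), and for ENSCAFG00000007857 with the mapping rate in the fit (0.25) and without libraries listing a member at 0 (0.27). The log hazard ratio of ENSCAFG00000007857 passed with a pseudocount of 0.1 (-0.20, adjusted p = 0.0433) and in the permutation test (-0.22). Over 10 alternatives its adjusted p ran from 0.0433 to 0.986. The correlation of ENSCAFG00000015860 in tumor and own normal tissue passed with upper quartile scaling (0.26) and in 2017 (0.42). Settings that leave out libraries listing a member at 0, that put grade or histology in the fit of another measure (survival apart), that split carcinomas by class or type, or that compare single grades were chosen after seeing the data.

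The number of identifiers called moved by more than 1.5 times in several settings. It went from 19 to 59 for malignant minus benign with a pseudocount of 0.1, to 34 with surgery year in the fit and to 0, 1 and 0 within years. For the grade slope it went from 2984 to 223 in 2016, 75 in 2018 and 1469 in simple carcinomas. For the ER slope it went from 884 to 87, 81 and 0 within years, 535 in malignant tumors and 316 or 302 by ER status. The identifiers called lower with invasion went from 90 to 296 with the pseudocount of 0.1. With it the number went for simple minus complex carcinoma from 84 to 236, and for simple carcinoma minus carcinoma in benign mixed tumor from 27 to 60, or 41 with upper quartile scaling. HER2 in 2017 and simple carcinoma minus simple adenoma with the other pathology gave 1. For paired tumor minus normal it went from 752 to 1404 with the pseudocount of 0.1, 127 in 2016 and 1241 in 2018. Across histology groups of pairs it went from 58 to between 12 and 138, and for survival from 29 to between 0 and 321. With upper quartile scaling 441 of 983 ER calls were higher, against 496 of 884, and 24 of 55 survival calls, against 16 of 29.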
